A study of Mus musculus with 8 samples.

Results

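Of the genes that interferon-gamma switches on, 10 were followed in the peripheral blood of stressed mice, namely the guanylate-binding protein genes Gbp2, Gbp3, Gbp4, Gbp5, Gbp6 and Gbp7, the immunity-related GTPase genes Irgm1 and Igtp, the transcription factor gene Irf1 and the chemokine gene Cxcl10. They were taken by their symbol from the 21878 gene symbols of the deposited count table, and all 10 were found there. Blood RNA was sequenced from 4 control mice and 4 mice of the stress group, all wild-type C57BL/6 females aged 6 to 8 weeks. The stress group had been restrained for 6 hours in a ventilated tube, and the littermates of the control group stayed in their cage. Both groups were without food and water, so fasting is shared by both. The question of the comparison was how acute restraint changes transcription in blood cells.

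Interferon-gamma, made mainly by NK cells and T cells, binds a receptor that signals through the kinases JAK1 and JAK2. Promoters of its target genes often carry gamma-activated sequences (GAS), and Irf1 is induced early, its protein acting on interferon-stimulated response elements (ISRE) of further genes. The guanylate-binding proteins and the immunity-related GTPases are enzymes that bind and hydrolyse GTP and gather on the vacuoles of intracellular bacteria and parasites, where they help to break the vacuole open. Irgm1 and Igtp (also called Irgm3) belong to the regulatory branch of the second family, which keeps the other members off the cell's own membranes. Cxcl10 encodes a chemokine that attracts T cells and NK cells carrying the receptor CXCR3.

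In the GENCODE M21 annotation of GRCm38 the genes lie in a few clusters. Gbp5 (chromosome 3, 142493978 to 142522344), Gbp7 (142530342 to 142550149), Gbp3 (142560026 to 142573209) and Gbp2 (142620602 to 142638008) follow each other on the plus strand of chromosome 3. Gbp4 (chromosome 5, 105115767 to 105139586) and Gbp6 (105270702 to 105293698) lie on the minus strand of chromosome 5. Cxcl10 (92346638 to 92348889) is on the same strand of chromosome 5. Chromosome 11 carries Irgm1 (48861968 to 48871683, minus strand), Irf1 (53770014 to 53778374, plus strand) and Igtp (58199556 to 58207591, plus strand).

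Promoter sequences of RefSeq (GRCm38.p6) were found for 8 of the 10 genes, and not for Gbp4 and Gbp6. In the 250 bases before the start site, a pair of ISRE half-sites was searched on both strands as GAAA, any NN and GAAA again, and a GAS element as TTC, any NNN and GAA, which reads the same on both. Of these 8 genes, 7 held the ISRE letters and 4 the GAS letters. Among 32851 promoter windows of the same length, 2.98% held the first and 7.02% the second. The 8 genes had 10 windows, so their counts are by gene and these shares by window. Such a match is a description of the sequence and does not show binding. The windows of 4 genes that contain no annotated exon are given from 5' to 3', with the matched letters in capitals. They stand for the gene that rose (Igtp), the transcription factor (Irf1), a guanylate-binding protein gene that did not pass the test (Gbp7) and the chemokine (Cxcl10), at chr11:58199306-58199555 (plus strand), chr11:53769764-53770013 (plus), chr3:142530086-142530335 (plus) and chr5:92348890-92349139 (minus).
Igtp: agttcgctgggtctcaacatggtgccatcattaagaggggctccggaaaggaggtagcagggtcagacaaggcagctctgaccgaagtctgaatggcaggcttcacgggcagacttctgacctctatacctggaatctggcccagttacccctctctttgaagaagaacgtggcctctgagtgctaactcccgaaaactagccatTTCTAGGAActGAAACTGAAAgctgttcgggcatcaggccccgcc
Irf1: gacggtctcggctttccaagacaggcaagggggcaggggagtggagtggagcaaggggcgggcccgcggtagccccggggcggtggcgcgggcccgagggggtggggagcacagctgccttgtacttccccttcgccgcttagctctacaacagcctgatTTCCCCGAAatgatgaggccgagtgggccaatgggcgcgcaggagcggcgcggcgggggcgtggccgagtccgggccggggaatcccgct
Gbp7: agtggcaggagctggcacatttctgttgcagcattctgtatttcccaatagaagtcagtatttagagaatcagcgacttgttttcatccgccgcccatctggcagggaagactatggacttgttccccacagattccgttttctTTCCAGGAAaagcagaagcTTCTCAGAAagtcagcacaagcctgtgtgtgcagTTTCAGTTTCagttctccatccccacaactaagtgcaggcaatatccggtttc
Cxcl10: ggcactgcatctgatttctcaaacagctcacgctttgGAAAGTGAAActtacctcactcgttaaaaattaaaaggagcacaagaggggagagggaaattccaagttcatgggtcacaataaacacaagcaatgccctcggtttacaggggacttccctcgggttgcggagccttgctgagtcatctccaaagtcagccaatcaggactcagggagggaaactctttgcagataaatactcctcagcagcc
In Igtp the GAS letters began 45 bases and the ISRE letters 34 bases before the start site, without overlap. In Irf1 only the GAS letters were found, 90 bases before the start. In Gbp7 GAS letters began 106 and 87 bases and the ISRE letters 53 bases before the start. Cxcl10 held only the ISRE letters, 213 bases before it.

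The libraries held 25978683 to 39014775 counts, and every stress library had fewer than every control library. Haemoglobin transcripts made up 51.9% to 63.8% of control libraries and 61.2% to 75.5% of stress libraries. Levels are given as CPM, the usual counts-per-million unit, after TMM scaling. This scaling centres the typical gene near a log2 fold change of 0, so each value is relative to that gene. The TMM factors were 1.01 to 1.77 for control libraries and 0.507 to 1.10 for stress libraries, and the scaling bears on every level below. On total counts alone the median of all tested genes was -0.82, against -0.03 with TMM. Of the 10 genes, 9 passed the filter of at least 10 counts in at least 4 samples, as did 11718 genes in all, and Cxcl10 did not. In bulk blood, fewer cells of a type and less RNA per cell cannot be told apart.

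One of the 9 tested genes changed under restraint, and it rose. Igtp was 1.48-fold higher in the stress group with TMM scaling (95% interval 1.23 to 1.78), while on total counts alone its log2 fold change was -0.23 and did not pass. Gbp4 was the lowest of the 9 in its fold change, at 0.811 (0.691 to 0.952), and did not pass the adjusted test. The study required a log2 fold change beyond 1 in either direction with an adjusted p under 0.01. By that rule edgeR's quasi-likelihood test (Benjamini-Hochberg adjusted) called 0 of the 9 up and 0 down, as did DESeq2 and limma-voom. Over all tested genes 1.69% were called up and 0.0171% down. At an adjusted p below 0.05 without a fold threshold, 1 of the 9 was higher and 0 were lower with each of the 3 tools, against 10.4% and 3.69% of all tested genes with edgeR. At an unadjusted p below 0.05, 2 were higher (Igtp and Gbp2) and 1 was lower (Gbp4), against 18.2% and 13% of all tested genes. These counts are near the background shares. Of the 9 genes 6 lay above a log2 fold change of 0 and 3 below it, against 47.1% and 52.9% of all tested genes, and their median was 0.11. This tally leaned on stress replicate 1, without which 5 lay above 0 and 4 below, the median was 0.04, and Gbp3, Gbp7 and Irf1 stood at 0.04, 0.04 and -0.013. With total counts alone all 9 lay below 0, as did 90% of all tested genes, and Gbp4, Gbp5 and Gbp6 were lower at an adjusted p below 0.05, as were 49.6% of all. On that scale the stress samples lay entirely above the controls for 0 of the 9 genes and entirely below them for 2, Gbp4 and Gbp6 (0.247% and 23.5% of all tested genes).

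**Figure D1:**
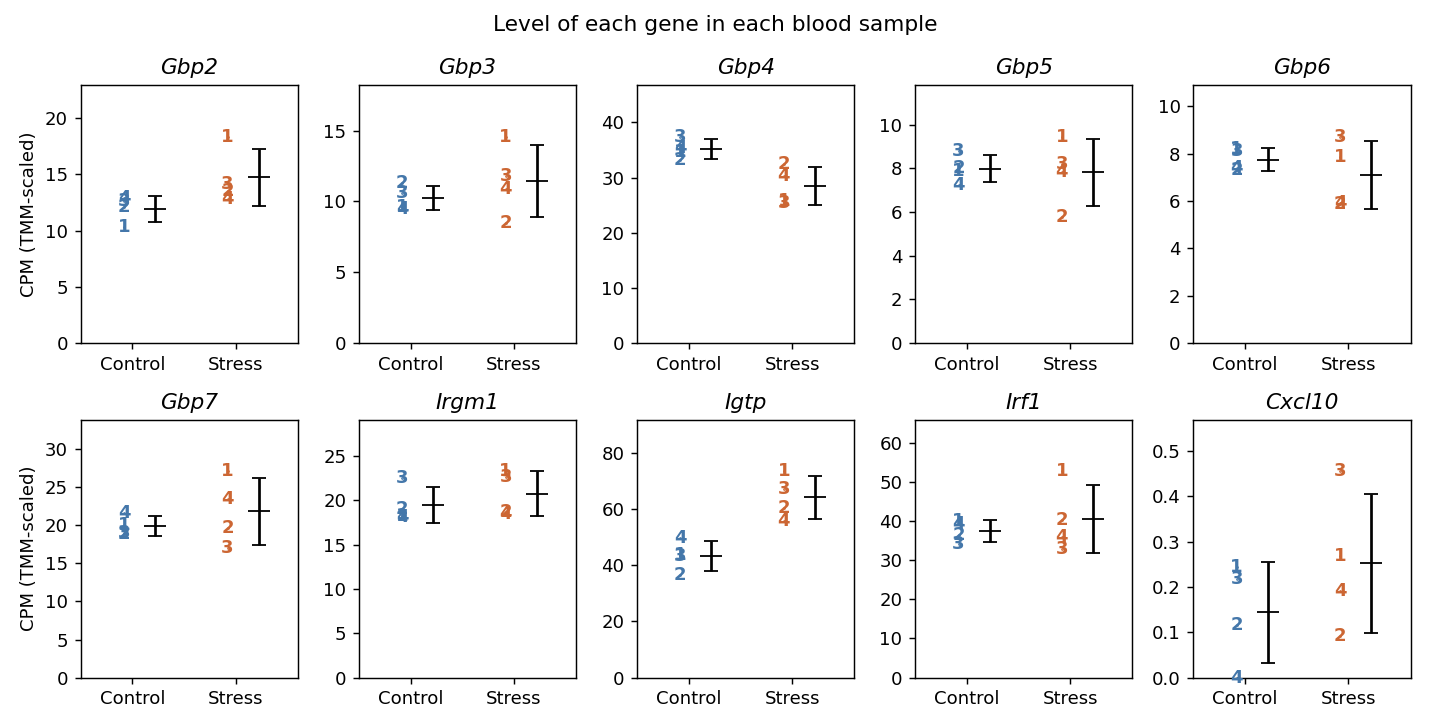
Level of each of the 10 genes in each sample, in TMM-scaled CPM on the vertical axis, with the replicate number as the plotting symbol (blue, control group, and orange, stress group) and the mean ± SD of each group (n = 4) in black. For Igtp every orange symbol lies above every blue one, for Gbp4 every orange symbol lies below, and for the other genes the groups overlap on this scale.

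Markers of some blood cell types moved with the groups. On the TMM scale the summed level of 10 B cell markers was 1072 to 1321 CPM in the control group and 730.1 to 955.3 CPM in the stress group, without overlap. That of 8 classical monocyte markers was 334.4 to 441.0 CPM and 698.4 to 1174 CPM, and that of 12 neutrophil markers 193.6 to 379.4 CPM and 585.5 to 855.5 CPM, both without overlap. The 10 platelet markers summed to 1615 to 2381 CPM and 3677 to 4227 CPM, also without overlap. The sums of 11 T cell markers (565.5 to 609.0 and 502.6 to 623.3 CPM), of 10 NK cell markers (80.7 to 133.2 and 71.2 to 151.0 CPM), of 8 non-classical monocyte markers (209.8 to 293.4 and 196.5 to 276.1 CPM) and of 8 erythroid markers overlapped. On total counts alone the sums of the neutrophil, classical monocyte and platelet markers overlapped, those of the B cell markers stayed lower (1097 to 2342 and 464.7 to 1051 CPM), and those of the NK cell markers were lower without overlap (94.3 to 170.5 and 53.4 to 78.4 CPM). No marker was at 0 in every sample, and 1 neutrophil marker, Camp, was at 0 in some samples. The part of these shifts in the values that follow was not tested.

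Igtp encodes a regulatory GTPase of the endoplasmic reticulum and of lipid droplets. Its control samples 1 to 4 had 43.5, 36.5, 43.4 and 49.6 CPM and its stress samples 73.4, 60.2, 67.1 and 55.8 CPM. All stress samples were above all control samples, an order that 11.1% of all tested genes showed on this scale. The mean ± SD over 4 samples rose from 43.2 ± 5.36 to 64.1 ± 7.75 CPM, which is 0.57 on the log2 scale (standard error 0.12, edgeR's adjusted p = 0.00934). The adjusted p stayed between 0.00733 and 0.0464 when each sample was left out in turn, and was 0.022 with the replicate number as a block. On total counts alone the value was -0.23 (adjusted p = 0.568), so that Igtp rose relative to the typical gene and not as a share of all counts. Its exons share 7.80% of their 75-base words with Irgm2, its neighbour on the same strand, and reads from that stretch could belong to either.

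Irgm1, the other regulatory GTPase, which also acts in the clearance of membranes by autophagy, did not pass. It had 18.3, 19.1, 22.5 and 18.1 CPM in control samples 1 to 4 and 23.3, 18.6, 22.6 and 18.5 CPM in the stress samples. The groups overlapped, with a log2 fold change of 0.09 (95% interval -0.17 to 0.34, adjusted p = 0.656, edgeR). Both genes encode proteins of the same branch of the family, and their counts within a sample could be compared without any scaling. The ratio of Irgm1 to Igtp counts was 0.42, 0.523, 0.519 and 0.365 in the control samples and 0.317, 0.31, 0.337 and 0.331 in the stress samples. All stress samples lay below all control samples (difference of the mean log2 ratio -0.48, with p = 0.0286 by a two-sided exact permutation test and 0.129 after adjustment for 36 pairs). That p is the smallest that 4 samples against 4 allow, and the pair was compared after the levels had been seen. Igtp was likewise higher without overlap against 46.1% of 11544 other tested genes, so the separation is not particular to Irgm1.

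Gbp2, whose protein coats bacterial vacuoles, had 10.3, 12.1, 12.6 and 12.9 CPM in the control samples and 18.4, 13.5, 14.2 and 12.8 CPM in the stress samples. Stress replicate 1 was well above the others and stress replicate 4 lay within the control range. The log2 fold change was 0.30 (standard error 0.13, edgeR's adjusted p = 0.136), and 0.20 when stress replicate 1 was left out. Gbp3, its neighbour on chromosome 3, had 9.46 to 11.3 CPM in the control group and 8.44 to 14.6 CPM in the stress group and did not pass (log2 fold change 0.15, 95% interval -0.17 to 0.48), and neither did Gbp7 (0.14, -0.15 to 0.43). Gbp7, whose protein has been linked to the assembly of the phagocyte oxidase, had 18.9 to 21.6 CPM in the control group and 17.0 to 27.1 CPM in the stress group, so that its stress samples lay on both sides of the controls. Gbp5, which promotes inflammasome assembly, had 7.25 to 8.77 CPM in the control group and 5.75 to 9.46 CPM in the stress group (log2 fold change -0.03, 95% interval -0.36 to 0.29). For the 4 genes of the chromosome 3 cluster the intervals leave room for changes of at most 1.49-fold upward and, downward, to 0.781 of the control level.

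The 2 tested genes on chromosome 5 had the lowest fold changes of the 9. Gbp4, whose protein has been linked to the control of inflammasomes, had 34.6, 33.1, 37.4 and 35.4 CPM in the control samples and 25.8, 32.4, 25.4 and 30.3 CPM in the stress samples. All stress samples were below all control samples, an order that 9.88% of all tested genes showed. The log2 fold change was -0.30 (standard error 0.11, edgeR's adjusted p = 0.0756). Across the alternatives other than total counts alone its adjusted p ranged from 0.0524 with DESeq2 to 0.198 without control replicate 3, and total counts alone gave a log2 fold change of -1.08 (0.0137, edgeR). Gbp6 had 7.30 to 8.21 CPM in the control group and 5.89 to 8.73 CPM in the stress group (log2 fold change -0.14, 95% interval -0.46 to 0.18). The value of Gbp6 is uncertain, since 67.3% of its 75-base words also occur in transcripts of other genes of the cluster, against 11.3% for Gbp7, 3.08% for Gbp4 and 0.955% for Gbp2.

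Irf1, the transcription factor at the head of the group, had 40.1, 36.4, 34.2 and 39.2 CPM in the control samples and 52.7, 40.3, 32.9 and 35.9 CPM in the stress samples. The highest and the lowest of the 8 samples were both stress samples. The log2 fold change was 0.11 (95% interval -0.18 to 0.41, adjusted p = 0.612, edgeR), and it was -0.013 without stress replicate 1. Of its exon bases, 3.40% overlap Gm17334 on the opposite strand. Cxcl10 was scarce. It had 9, 6, 15 and 0 counts in control samples 1 to 4 and 6, 2, 6 and 6 counts in the stress samples, so that a difference was not detectable at this depth. Its receptor gene Cxcr3 was measured at 3.55 ± 0.818 and 4.40 ± 0.709 CPM (mean ± SD of 4 samples each) and did not pass (0.30 on the log2 scale, edgeR's adjusted p = 0.34).

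**Figure D2:**
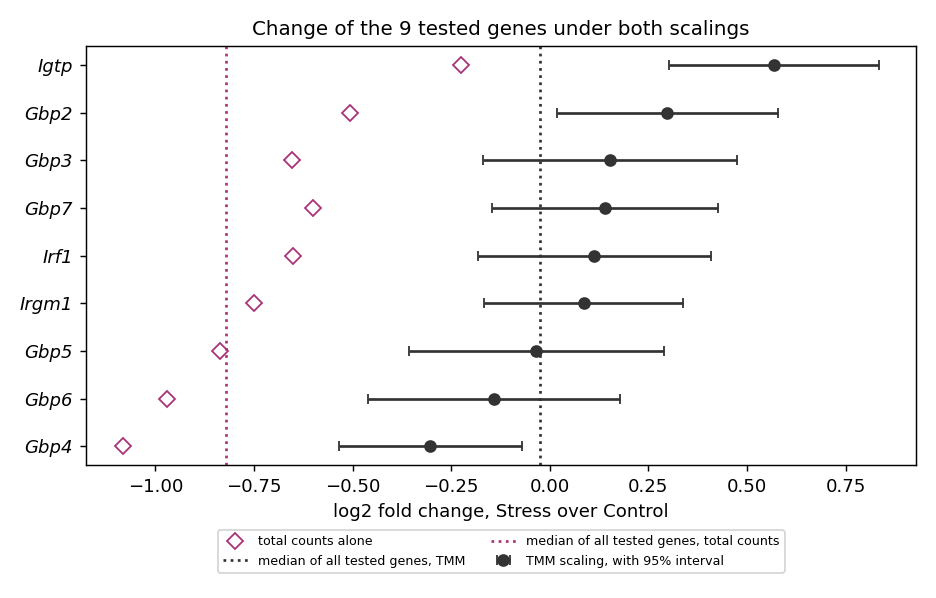
Log2 fold change of the stress group over the control group (horizontal axis) for the 9 tested genes (vertical axis), with TMM scaling (filled circles, bars for the 95% interval) and with total counts alone (open diamonds), and the medians of all tested genes as dotted lines. Igtp is the rightmost and Gbp4 the leftmost on both scales, while the whole set moves with the median of all genes from -0.03 to -0.82.

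The scaling moved all 9 genes together and did not touch the ratios between them. The log2 ratio of counts was therefore taken within each sample for all 36 pairs of the 9 genes, a measure chosen after their levels had been seen. In 8 of the 36 pairs (22.2%) the groups did not overlap, which is near the 19.4% found over all pairs of the 11545 tested genes with a count in every sample, so the number of such pairs is no result about these genes. Igtp was the higher gene in 6 of the 8. Gbp4 was the lower gene in 3 of the 8, against Igtp, Gbp2 and Irf1. Against the 11544 other genes of that set, Igtp was higher without overlap for 46.1% and Gbp4 lower for 25.1%. The ratio of Gbp4 to Igtp moved the most. It was 0.796, 0.909, 0.863 and 0.713 in control samples 1 to 4 and 0.351, 0.538, 0.378 and 0.543 in the stress samples. Its mean log2 value (± SD, n = 4) was -0.29 ± 0.15 for control and -1.17 ± 0.33 for stress. For each of the 8 pairs the two-sided exact permutation test gave p = 0.0286, the smallest that 4 samples against 4 allow, and 0.129 after adjustment over the 36 pairs, so that no pair passed. Igtp did not separate from Gbp2 (p = 0.0571, exact permutation test) or Gbp3 (p = 0.0857, same test). Among the other genes, Irgm1 and Irf1 kept the closest mean ratio, with a difference of -0.0016 on the log2 scale between the groups (exact permutation test, p = 0.971).

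**Figure D3:**
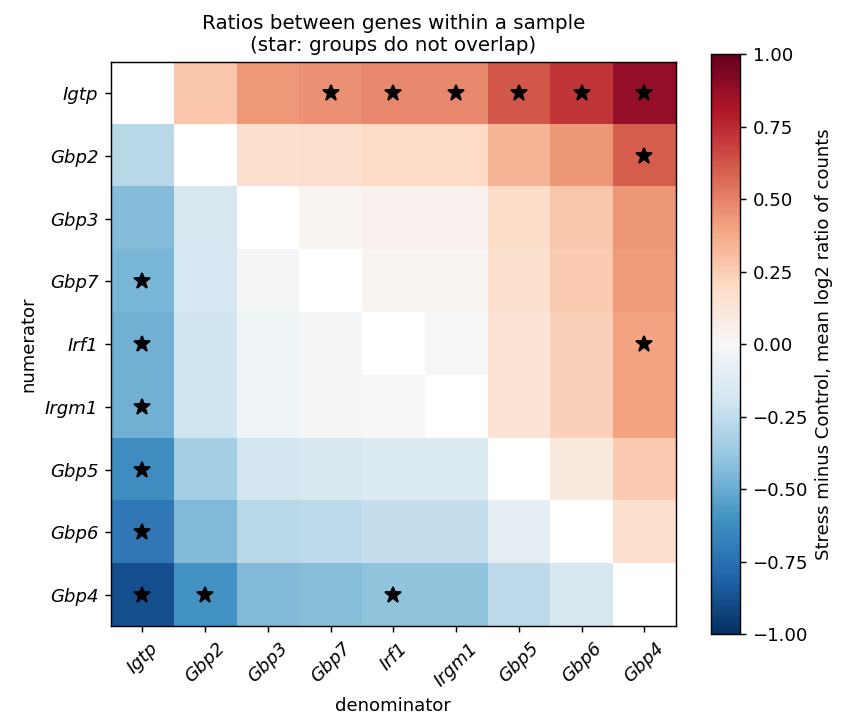
Difference between the groups (stress minus control) in the mean log2 ratio of counts for each pair of the 9 genes, with the numerator on the vertical and the denominator on the horizontal axis and the colour giving the difference. Stars mark the 8 pairs, each shown in both orientations, whose groups do not overlap, and they fall in the rows and columns of Igtp and Gbp4.

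Per kilobase of exon, Igtp was the most abundant of the genes in the control group, at 21.4 ± 2.65 CPM per kilobase (SD, n = 4), followed by Irf1 at 9.42 ± 0.685. Gbp2 (4.76 ± 0.46) and Gbp4 (4.69 ± 0.238) came next, with overlapping values. Gbp7, Irgm1 and Gbp3 formed the next step, with overlapping values of 2.90 to 3.87 CPM per kilobase. Gbp6 (1.30 ± 0.0786) and Gbp5 (1.2 ± 0.0939) overlapped below it, and Cxcl10 was last at 0.0641 ± 0.0493. In the stress group Igtp stood at 31.7 ± 3.83 CPM per kilobase, and Gbp4, at 3.80 ± 0.459, overlapped with Gbp7 at 3.88 ± 0.787. With the length of the longest transcript in place of all exons, Igtp (21.4) and Irf1 (17.5) stayed first in the control group and Gbp4 (7.74) followed. Below them the order changed with this length, with Irgm1 (5.08) above Gbp2 (4.76) and Gbp5 (2.12) above Gbp6 (1.83).

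The genes did not all move together between animals, and Gbp4 in particular ran apart from the others. Of the 9 genes, 7 were highest in stress replicate 1, which also held the highest value for 12 of 28 type I interferon-stimulated genes. The exceptions were Gbp4, highest in control replicate 3, and Gbp6, highest in stress replicate 3. After the group means were taken out, the pairwise Pearson correlation of log2 CPM over the 8 samples ranged from -0.79 for Gbp4 and Gbp6 to 0.94 for Gbp3 and Gbp5, with a median of 0.36 and 26 of 36 pairs above 0. Every pair with Gbp4 was below 0, the nearest to 0 being -0.014 with Gbp7. Shares over all tested genes were not computed for these counts and correlations. The libraries differ in depth and makeup, which the samples share across genes. Of all other tested genes, Nudt19 (r = 0.94), Klc3 (0.94), Oasl1 (0.92), Dctn4 (0.91) and Mfge8 (0.90) had the profile most like the mean z-score of the 9 genes over the 8 samples. With the group means taken out, Oasl1, an interferon-induced gene of the oligoadenylate synthetase family, came first (r = 0.95), followed by Mfge8 (0.95) and Gnb1l (0.94). Oasl1 had 4.51 to 6.06 CPM in the control group and 9.68, 4.59, 6.76 and 5.89 CPM in stress samples 1 to 4. The mean z-score was 1.22 in stress replicate 1 and -0.53 to 0.13 in the other samples. Each of these similar genes was also highest in stress replicate 1. Their correlations thus lean on 1 library, and they were picked as the best of all tested genes. The coefficient of variation was larger in the stress group for 8 of the 9 genes, with Igtp as the exception (12.4% and 12.1%), but this held for 74.3% of all tested genes as well.

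Of 18 other interferon-inducible GTPase genes listed, 12 were tested, and 1 of these changed, Gbp9, which fell. At an adjusted p below 0.05 (edgeR) 0 of the 12 were higher and 1 was lower, against 10.4% and 3.69% of all tested genes. Gbp9, a neighbour of Gbp4 on chromosome 5, had 55.1, 51.9, 60.0 and 47.2 CPM in the control samples and 40.0, 36.1, 34.5 and 41.0 CPM in the stress samples. The groups did not overlap, with -0.50 on the log2 scale (standard error 0.11, edgeR's adjusted p = 0.00989) and -1.29 on total counts alone (0.00779). Irgm2, the remaining regulatory GTPase, which shares sequence with Igtp and was picked out after its values were seen, was at 17.5 ± 0.788 and 18.4 ± 4.81 CPM (0.07 on the log2 scale, edgeR's adjusted p = 0.784). The effector GTPase genes Ifi47 (0.28), Tgtp2 (0.08) and Gm12250 (0.32) and the genes Gbp10 (-0.30) and 9930111J21Rik1 (-0.30) did not pass either. Gbp8, which like Gbp9 overlaps exons of Gbp4, was picked out after its values were seen. It was at 0.04 on the log2 scale (edgeR's adjusted p = 0.906). At an unadjusted p below 0.05, 0 of the 12 were higher and 1 was lower, against 18.2% and 13% of all tested genes. Their median was 0.02.

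Upstream of the group, Ifng was too scarce to be tested, with 6 to 12 counts in the control libraries and 4 to 6 in the smaller libraries of the stress group, or 0.206 ± 0.0876 and 0.238 ± 0.0621 CPM after scaling. Of 16 tested genes of the receptor pathway, 2 rose and 0 fell at an adjusted p below 0.05 (5 and 1 at an unadjusted p below 0.05, edgeR), with a median log2 fold change of 0.10. The receptor chains Ifngr1 (0.17) and Ifngr2 (0.20) and Jak1 (0.08) did not pass. Jak2 was higher in all stress samples without passing (0.30, adjusted p = 0.078, edgeR), and Irf8, a transcription factor of monocytes and B cells, was lower in all of them (-0.31, adjusted p = 0.0653). With DESeq2 both passed, at an adjusted p of 0.027 and 0.0289. On the TMM scale 11.1% of all tested genes lay wholly above the controls and 9.88% wholly below. The 2 of 16 that rose at an adjusted p below 0.05 with edgeR are near the 10.4% of all tested genes. At an unadjusted p below 0.05, 18.2% of all tested genes were higher and 13% lower. Ptpn11, which encodes the phosphatase SHP2, went from 83.0 ± 12.6 to 129.1 ± 13.2 CPM (mean ± SD of 4 samples each), or 0.64 on the log2 scale (edgeR's adjusted p = 0.00846) and -0.10 on total counts alone. Socs3, a feedback inhibitor of cytokine receptors, went from 16.9 ± 2.30 to 23.8 ± 4.44 CPM (0.50, adjusted p = 0.0323, and -0.20 on total counts alone). Its groups overlapped, and its adjusted p rose to between 0.0625 and 0.108 without control replicate 2 or 3 or without stress replicate 1 or 4. The feedback inhibitor genes Socs1 (0.77, adjusted p = 0.0803) and Cish (0.64, 0.0829), picked out after their values were seen, did not pass with edgeR. On total counts alone Socs1 was at -0.11 and Cish at -0.17. The values of Ptpn2 (-0.22) and Pias1 (-0.24), which encode other inhibitors of cytokine signalling, did not pass.

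Over all tested genes, 10.4% rose and 3.69% fell at an adjusted p below 0.05, and 18.2% and 13% at an unadjusted p below 0.05 (edgeR). At the unadjusted threshold, 4 of 17 tested further genes induced by interferon-gamma rose and 2 fell. At the adjusted threshold 0 of the 17 rose and 1 fell, with a median of 0.04. The one that fell was Ciita, the master regulator of MHC class II genes, from 75.04 ± 8.06 to 44.1 ± 10.1 CPM, or by -0.76 on the log2 scale (edgeR's adjusted p = 0.00636). Nlrc5, its counterpart for MHC class I, was lower in all stress samples without passing (-0.45, adjusted p = 0.0676), while B2m, the light chain of MHC class I, was higher in all of them without passing (0.58, 0.0653). Fcgr1 (1.81) and Upp1 (1.88) had larger values at mean control levels of 0.75 and 0.194 CPM and did not pass, and neither did Wars (-0.16). With DESeq2 B2m, Fcgr1 and Upp1 passed, at an adjusted p of 0.00109, 0.0129 and 0.0279. Orders like those of Nlrc5 and B2m were shown by 9.88% and 11.1% of all tested genes on the TMM scale. The list of interferon-gamma producers and the Cxcl10 receptor also holds cytokine genes such as Il15 and cytokine receptor genes such as Il18r1. Of its 10 tested genes, 1 rose and 1 fell at an adjusted p below 0.05. The shares over all tested genes were the same 10.4% and 3.69%. Il15, a cytokine that sustains NK cells, rose from 1.95 ± 0.351 to 4.97 ± 0.854 CPM (1.37 on the log2 scale, adjusted p = 0.00111, and 0.64 with 0.133 on total counts alone), and Il18r1, a chain of the interleukin-18 receptor, fell from 16.8 ± 0.906 to 10.5 ± 1.68 CPM (-0.67, adjusted p = 0.00341, edgeR). Tbx21, the T-bet gene of Th1 and NK cells, was at -0.14, Il18rap at 0.13 and Il12a at -0.39, and none of the 3 passed.

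The type I interferon-stimulated genes, which answer mainly to interferon-alpha and interferon-beta, had a higher median than the GTPases. Of 28 tested, 6 rose and 0 fell at an adjusted p below 0.05, and 24 had a log2 fold change above 0, with a median of 0.40. Over all tested genes 10.4% rose and 3.69% fell at that threshold, and 47.1% lay above 0 (edgeR). On total counts alone the median of the list was -0.41, against -0.82 for all tested genes. The mean z-score of the list was 1.05, -0.65, 0.72 and 0.38 in stress samples 1 to 4. In the control samples it was -1.01 to 0.17, so the groups overlapped and the higher median was not shared by every stress sample. Ifi204 rose by 1.23, Rtp4 by 0.71 and Ifit2 by 0.45 on the log2 scale (adjusted p = 0.00682, 0.0252 and 0.0337, edgeR), and the last 2 of these lost the call when any of several single samples was left out. On total counts alone the 3 values were 0.48, -0.16 and -0.31. Phf11d (-0.90), Ddx58 (-0.05) and Eif2ak2 (-0.07) did not pass. The difference between the lists was not tested.

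**Figure D4:**
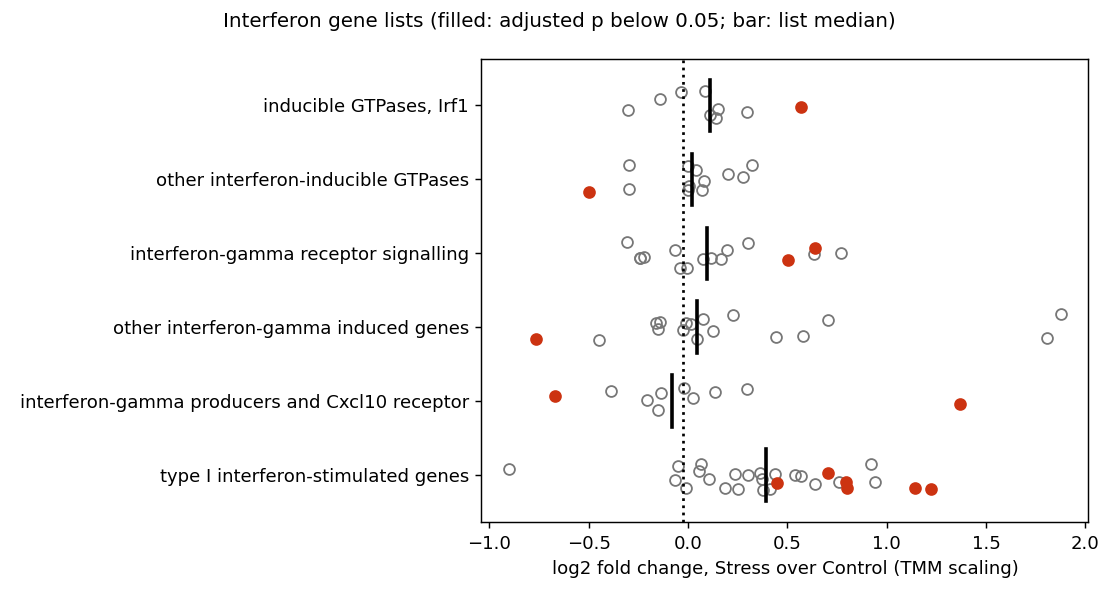
Log2 fold change of the stress group over the control group (horizontal axis, TMM scaling) for each tested gene of the 6 lists (vertical axis), with filled points at an adjusted p below 0.05, bars for the list medians and a dotted line for the median of all tested genes. The GTPase and interferon-gamma lists centre between -0.08 and 0.11, and the type I list at 0.40.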

How the data were processed

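Blood RNA of 4 mice per group was sequenced. The table that the authors deposited holds raw counts by gene symbol, not normalized, and per the labels HISAT2, featureCounts and mm10 were used. The annotation, the strand setting and versions are not given in the sources used here, so overlapping genes are uncertain. The 11718 genes that reached 10 counts in 4 or more samples were fitted with edgeR 4.0.16 in R 4.3.3 (TMM, robust quasi-likelihood test, all 8 samples, Benjamini-Hochberg adjustment over all tested genes). DESeq2 1.42.0, limma-voom (limma 3.58.1), other normalizations and filters, the replicate number as a block and fits without 1 sample were alternatives. The main edgeR fit, DESeq2 and limma-voom were run on simulated data, and the other alternatives were not. Intervals are 95% intervals of the fit, CPM uses the TMM-scaled library, and log2 CPM for profiles used a prior count of 2. Exact permutation tests ran over 70 assignments. Lengths, overlaps and shared 75-base words come from GENCODE M21, and promoters from RefSeq. The genes and lists were chosen with earlier results of these data known. Named from each list were the core pathway genes and up to 3 genes with the smallest p in each direction. No pair of libraries of a group agreed within sampling noise, and p-values measure the spread between these samples. Gbp11, Mx1, Mx2 and Cxcl11 were not analysed here, and 1 gene of the receptor list is not reported here and was left out of that list's counts.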

Additional observations from a re-analysis of the deposited data

How the results depend on the processing

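The rise of Igtp kept its direction and an adjusted p below 0.05 (edgeR or the named tool) under all alternatives except total counts alone, and 0 of the 9 genes were called at the study thresholds under any. On total counts alone 0 genes of the group were higher and 3 lower at an adjusted p below 0.05, with a median log2 fold change of -0.65. On that scale the sign turned for Gbp2 (-0.51), Gbp3 (-0.65), Gbp7 (-0.60), Irgm1 (-0.75), Igtp (-0.23), Irf1 (-0.65), Ifi47 (-0.60), Gm12250 (-0.43), Tgtp2 (-0.73), Ptpn11 (-0.10), Socs3 (-0.20), Jak2 (-0.44), Ifngr1 (-0.65), Ifngr2 (-0.60), Jak1 (-0.70), B2m (-0.25), Cxcr3 (-0.53), Il18rap (-0.57), Rtp4 (-0.16) and Ifit2 (-0.31), as the median of all genes moved to -0.82. On total counts alone the sign also turned for the genes picked out after their values were seen, Socs1 (-0.11), Cish (-0.17), Irgm2 (-0.71) and Gbp8 (-0.77). Values near 0 turned when a sample was left out, over ranges of -0.11 to 0.12 for Gbp5, -0.013 to 0.21 for Irf1, -0.27 to 0.0041 for Tbx21, -0.099 to 0.049 for Ddx58 and -0.17 to 0.055 for Eif2ak2. The calls of Socs3, Rtp4 and Ifit2 were each lost without any 1 of several samples, and that of Ifit2 with the replicate block (adjusted p = 0.0538, edgeR), while Fcgr1 (0.034) and Upp1 (0.0392) passed with it.

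Over all tested genes, 1222 were higher and 432 lower at an adjusted p below 0.05, and 198 were called up and 2 down at the study thresholds. The 4 counts were 52, 5811, 14 and 728 on total counts alone. DESeq2 gave 655 lower, 332 up and 12 down, and the upper quartile and no count filter gave 4 down each. Leaving out each sample gave 617 to 1425 higher, 81 to 726 lower, 76 to 340 up and 1 to 8 down. The higher and up counts were lowest without control replicate 2 (617 and 76) and then 3 (690 and 95), and the up count was highest without control replicate 4. The lower count was 81 to 280 for each control left out, 247 and 195 with stress replicate 1 or 2 left out and 726 with stress replicate 4 left out. Ratios without overlap numbered 8 of 36 with all samples and 9 to 12 with 1 left out. Leaving out a sample cannot lower that number. With the replicate block, 240 genes were lower and 1 was called down, and Igtp had an adjusted p of 0.022 (edgeR). Whether the numbers pair the samples could not be settled from these values. The deviations of same-numbered samples correlated at 0.06, 0.0004, -0.04 and -0.16. Only for replicate 1 was the same-numbered sample the best match. The cause of these shifts was not tested. Cxcl10 and Ifng had too few counts to be tested.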
